A study of Mus musculus with 3 samples.

Results

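The genes described here are 10 genes of the NRF2 antioxidant response and of the defence against ferroptosis, chosen by name: Slc7a11, Hmox1, Nqo1, Gclm, Gclc, Txnrd1, Srxn1, Gsr, Gpx4 and Nfe2l2. The authors' deposited table held 9 of the 10, as 14 of its 17910 RefSeq transcripts and 9 of its 11886 gene symbols, and Nqo1 had no row. There were 3 libraries, 1 per group. The first was made from green fluorescent (GFP-positive) mT3-2D-GFP cells sorted from tumours in SCID mice (B6.CB17-Prkdcscid/SzJ, a C57BL/6 background with mutant Prkdc, which lacks T and B cells but keeps myeloid and NK cells). The second came from the same kind of cells sorted out of tumours grown in WT (wild-type) C57BL/6 mice, and the third from the mT3-2D-GFP line in culture with 10% serum and 2 mM glutamine. The line is a single line of C57BL/6 origin from a KPC tumour, a genetically engineered mouse model of pancreatic cancer, so all 3 groups share its mutations and its GFP. Equal RNA amounts from 5 SCID tumours, and likewise from 6 WT tumours, went into each pool, so the spread between animals was not measured. No source used here gives the ages of the mice.

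NRF2, the product of Nfe2l2, is a transcription factor that KEAP1 marks for degradation and that accumulates when oxidants or electrophiles modify KEAP1. It then pairs with small MAF proteins at antioxidant response elements and drives genes for glutathione, thioredoxin and haem metabolism, while BACH1 occupies the same elements as a repressor. Ferroptosis is an iron-dependent cell death from lipid peroxides, which GPX4 removes at the cost of glutathione. The cystine for glutathione enters through SLC7A11, and in pancreatic tumours both NRF2 and cystine import have been described as supports of tumour growth.

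Every value below is a log2 difference between 2 libraries from the authors' deposited table. The table holds no level for any library, and its values ran from -2.49 to 2.77 over all transcripts, so how they relate to read ratios is unknown. A gene's value is the mean over its transcripts, and a gene was called at a difference of 2-fold (1.0 on the log2 scale). With 1 library per group no test between groups is possible and no p-value is given. Transcripts of 1 gene had a pooled SD of 0.22 for SCID minus WT, 0.33 for SCID minus line and 0.31 for WT minus line, which describes transcripts and not animals. Reads per library are unknown beyond a mean of 40000000 given in the labels.

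Between the tumour pools, Slc7a11 and Hmox1 stood apart from the other members, both lower in the SCID pool than in the WT pool. Slc7a11, the cystine importer, was at -0.73 for SCID minus WT in the authors' deposited table, 1.66-fold lower in the SCID pool on that scale. Only 77 of the 11886 genes (0.648%) had a lower value. Hmox1, the haem-degrading enzyme that releases iron, carbon monoxide and biliverdin, was at -0.50, with 173 genes (1.46%) lower. The other 7 members lay between -0.15 (Nfe2l2) and 0.08 (Gclc), inside the SD between transcripts. No member passed 2-fold, a call made in 0.0168% of all genes as higher and 0.303% as lower in the SCID pool. At 1.5-fold Slc7a11 was the single member called lower (1.1% of all genes) and none was called higher (0.177% of all genes). The median of the 9 members was -0.08, against -0.0044 for all genes.

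**Figure D1:**
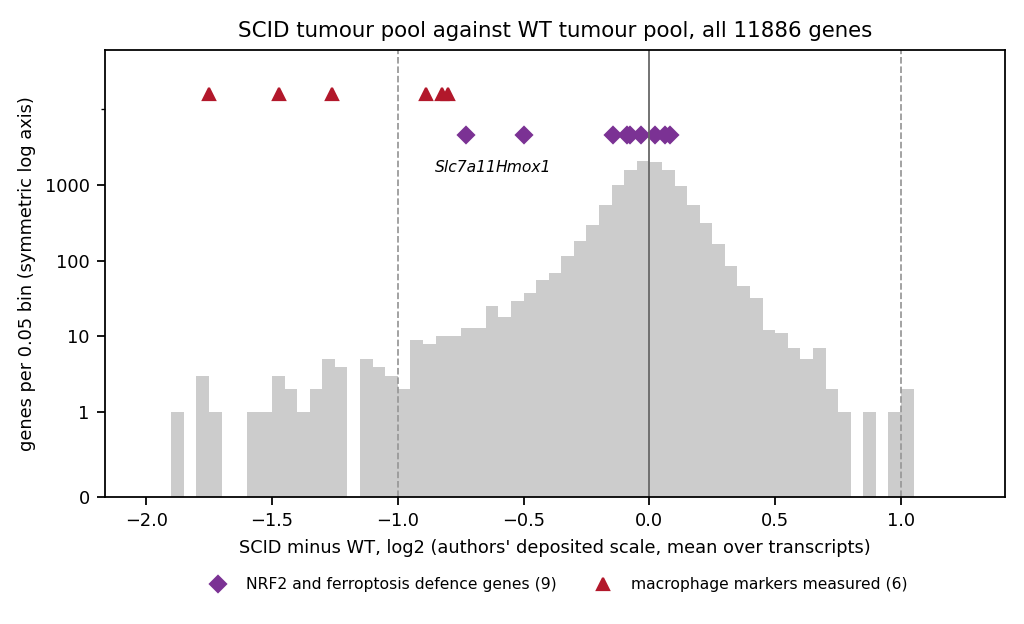
Histogram of SCID minus WT (log2, x axis) for all 11886 genes in bins of 0.05, with gene counts on a symmetric log y axis. Diamonds mark the 9 NRF2 and ferroptosis defence genes and triangles the 6 measured macrophage markers, placed above the bars at heights without meaning; dashed lines mark 2-fold. Slc7a11 at -0.73 and Hmox1 at -0.50 lie in the lower tail, and the other members lie close to 0. The macrophage markers, whose values run from -1.75 to -0.80, all lie farther from 0 than any member.

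Macrophage markers were lower in the SCID pool in the same comparison. Of 24 listed markers 6 had a value, and all 6 were below 0, with Apoe at -1.75, Cx3cr1 at -1.47, Cd68 at -1.26, Mertk at -0.89, Mrc1 at -0.82 and Cd14 at -0.80. Among markers without a row were Adgre1, Csf1r and C1qa, and the table cannot show whether they were at 0. Hmox1 is also a gene of macrophages that take up haem, and Slc7a11 is also expressed by activated macrophages. The part of these cells in the values of Slc7a11 and Hmox1 was not tested, and fewer cells of a type cannot be told apart here from less RNA per cell. The 2 measured fibroblast markers of 13 were higher in the SCID pool, with Col1a1 at 0.71 and Col6a3 at 0.64. The 3 measured T and NK cell markers of 17, Foxp3, Tcf7 and Eomes, lay between 0.01 and 0.02, and no B cell or neutrophil marker had a row. Eomes was lower in the SCID and WT pools than in the cultured line, at -0.61 and -0.63. The T and NK cell content of the pools can therefore not be read from these genes. All 10 listed epithelial markers of pancreatic tumour cells had a row, with a median of -0.15 and a range from -0.34 (Epcam) to 0.17 (Sox9).

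Between the tumour pools, the genes next to SLC7A11 given here lay on both sides of 0, and those next to HMOX1 lay below 0. Only Gss and Fth1 among them were farther from 0 than the SD of 0.22 between transcripts. Slc3a2, which encodes the chain that carries SLC7A11 to the membrane, was at 0.21 for SCID minus WT. Gclc and Gclm, the catalytic and modifier subunits of glutamate-cysteine ligase, which starts glutathione synthesis, were at 0.08 and 0.06, although Gclm was at -0.02 after a trend in GC content and length was removed. Gss, glutathione synthetase, was at -0.44, also lower in the SCID pool. Fth1 and Ftl1, the ferritin chains that store iron such as that freed by HMOX1, were at -0.26 and -0.19. Biliverdin reductases Blvra and Blvrb, which act on the biliverdin that HMOX1 releases, were at -0.17 each. These genes next to HMOX1 were named after their values were seen. In the wider lists given below, 12 of 21 iron genes and 6 of 16 haem genes were above 0 for SCID minus WT, against 48.5% of all genes.

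Against the cultured line, Gclm and Gsr were lower and Hmox1 and Gclc higher in both tumour pools, all within 2-fold. Gclm was at -0.61 for SCID minus line and -0.67 for WT minus line in the authors' deposited table. Gsr, glutathione reductase, was at -0.53 in the SCID pool and -0.45 in the WT pool. Gclc went the other way from its partner Gclm, at 0.28 in the SCID pool and 0.20 in the WT pool. Both Gclc values lay inside the SD between transcripts. The ligase subunits thus stood 1.52-fold lower and 1.22-fold higher than culture in the SCID pool.

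Slc7a11 was at -0.64 in the SCID pool and 0.09 in the WT pool, each against the line. Its order over the libraries was therefore SCID lowest, then the line, then WT, and the last step of 0.09 shrank to 0.01 once the GC and length trend was removed. Hmox1 was at 0.41 in the SCID pool and 0.91 in the WT pool, so that its order was the line, SCID and WT. Only 592 genes (4.98%) had a higher WT minus line value than Hmox1. The 6 macrophage markers had medians of 0.50 for SCID minus line and 1.65 for WT minus line. The part of macrophages in the values of Slc7a11 and Hmox1 was not tested.

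Of the 9 members, 0 passed 2-fold against the line in either pool. Over all genes 3.65% were called higher and 2.62% lower for SCID minus line, and 4.12% higher and 2.03% lower for WT minus line. At 1.5-fold the SCID pool had 2 members lower, Slc7a11 and Gclm (9.43% of all genes), and 0 higher (11.0% of all genes). The WT pool had 1 lower, Gclm (8.36% of all genes), and 1 higher, Hmox1 (11.3% of all genes). With 9 members these counts lie close to the share over all genes. The median of the members was -0.17 for SCID minus line and -0.02 for WT minus line, against -0.02 and -0.01 for all genes. Both comparisons share the library of the line, so their likeness is not a separate result.

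**Figure D2:**
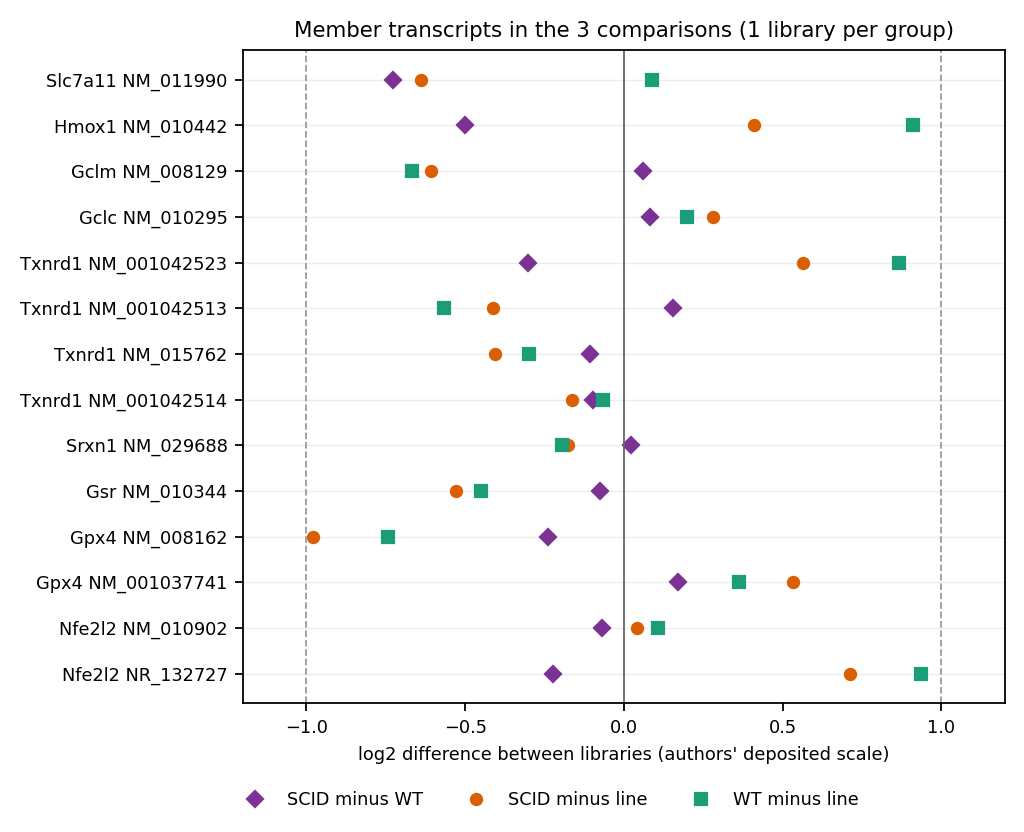
Log2 difference (x axis, authors' deposited scale) of each of the 14 member transcripts, 1 row each, in SCID minus WT (diamonds), SCID minus line (circles) and WT minus line (squares), with dashed lines at 2-fold. No transcript passes 2-fold, and the transcripts of Txnrd1 and of Gpx4 fall on both sides of 0 against the line.

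Gene means hid opposite values of single transcripts in Gpx4 and Txnrd1. Gpx4 had a mean of -0.22 for SCID minus line and -0.19 for WT minus line, but these joined transcripts on both sides of 0. NM_008162, which encodes the mitochondrial and cytosolic enzyme, was at -0.98 in the SCID pool and -0.74 in the WT pool, the lowest of the 14 member transcripts in each. In the SCID pool that was 1.97-fold lower than culture, just short of the call. NM_001037741, whose annotated start lies 531 bases downstream in the first intron of the other, was at 0.53 in the SCID pool and 0.36 in the WT pool. An alternative first exon in this place encodes the nuclear form of GPX4, best known from sperm. Both transcripts have 7 exons in GENCODE vM21, with 197 and 253 codons, and differ in the first exon alone, 228 exonic bases of NM_008162 and 264 of NM_001037741 being their own. The gap between them was 1.51 for SCID minus line, a gap reached by 1.78% of the 3598 genes with several transcripts, and 1.11 for WT minus line, reached by 5.67%. Between the tumour pools NM_008162 was at -0.24 and NM_001037741 at 0.17.

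Txnrd1, the cytosolic thioredoxin reductase and like GPX4 a selenoprotein, had 4 transcripts and means of -0.10 for SCID minus line and -0.02 for WT minus line. NM_001042523 starts 25255 bases upstream of NM_015762 and has 613 codons where the others have 499. It was at 0.56 in the SCID pool and 0.87 in the WT pool. NM_001042513 and NM_015762, which share a start, were at -0.41 each in the SCID pool and at -0.57 and -0.30 in the WT pool. NM_001042514, starting 1135 bases further downstream, was at -0.16 and -0.07. The gap between the highest and the lowest transcript was 0.98 for SCID minus line, reached by 8.98% of genes with several transcripts, and 1.43 for WT minus line, reached by 2.0%. NM_001042513 has no exonic base of its own and NM_001042523 has 419 of 3622. How the authors divided reads between overlapping transcripts is not stated in any source used here, so a value of a single transcript is uncertain.

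**Figure D3:**
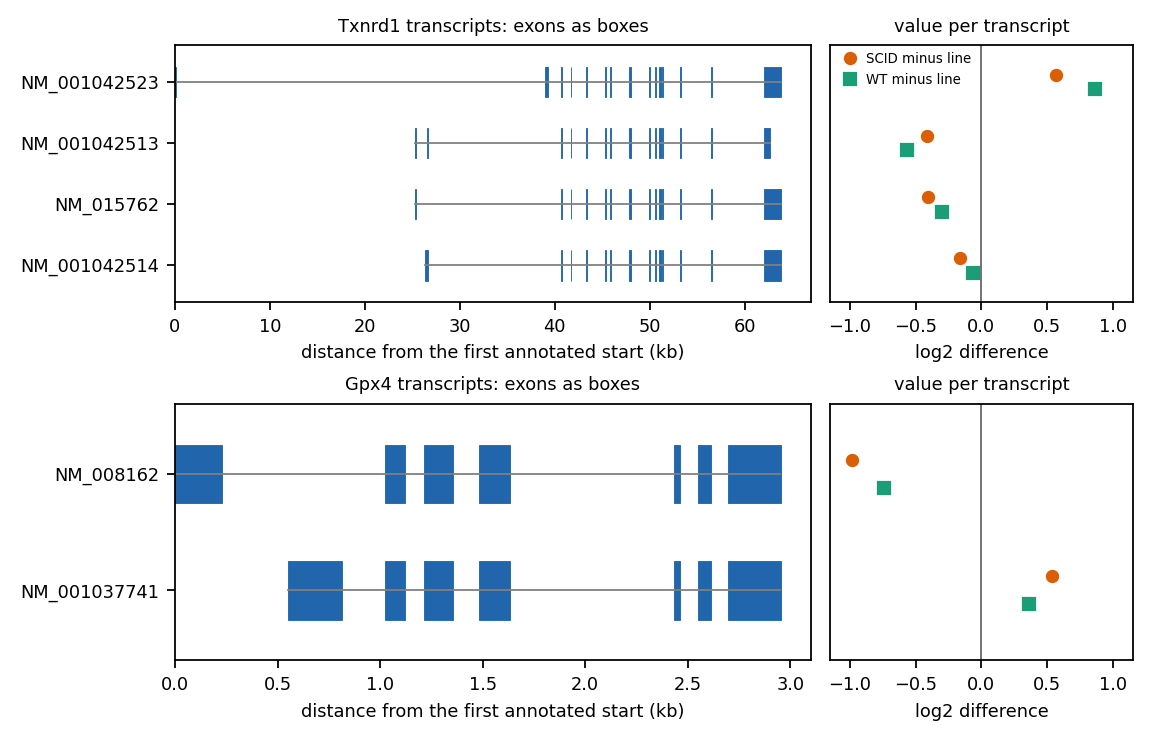
Left, exons (boxes) of the 4 Txnrd1 and 2 Gpx4 transcripts from GENCODE vM21 against distance from the first annotated start in kb; right, each transcript's log2 difference for SCID minus line (circles) and WT minus line (squares). The upstream Txnrd1 transcript and the downstream Gpx4 transcript are above 0 in both pools, and the others are below 0.

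Nfe2l2 itself differed little between the libraries on its coding transcript. NM_010902 was at 0.04 for SCID minus line, 0.11 for WT minus line and -0.07 for SCID minus WT. The non-coding transcript NR_132727, with 2 exons, was at 0.71, 0.94 and -0.22 in the same order, and it alone brought the gene means to 0.38 and 0.52 against the line. It shares 8.71% of its exonic bases with the coding transcript. Srxn1, sulfiredoxin, which repairs over-oxidised peroxiredoxins, was at -0.17 for SCID minus line, -0.20 for WT minus line and 0.02 for SCID minus WT.

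The table places Slc7a11 (NM_011990) on chromosome 3 from 50364936 to 50443613 on the reverse strand and Hmox1 (NM_010442) on chromosome 8 from 75093618 to 75100593 on the forward strand. Gclm (NM_008129) lies on chromosome 3 from 122245557 to 122267215, Gclc (NM_010295) on chromosome 9 from 77754535 to 77794489, Gsr (NM_010344) on chromosome 8 from 33653238 to 33698162 and Srxn1 (NM_029688) on chromosome 2 from 152105524 to 152111376, all on the forward strand. Txnrd1 reaches from 82833951 to 82897724 and Gpx4 from 80053488 to 80056439 on the forward strand of chromosome 10. Nfe2l2 lies on the reverse strand of chromosome 2 from 75675513 to 75704663. These positions match RefSeq GRCm38.p6, which holds all 14 transcripts, although the processing notes name mm9.

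Start-site windows of RefSeq GRCm38.p6, 250 bases before to 50 after a start, were matched for 7 of the 10 members and not for Hmox1, Gclc and Gsr. They were searched on both strands for the core of the antioxidant response element, TGACNNNGC or TGATNNNGC, for the AP-1 element TGACTCA, and for TGATGCAA, the core of the amino acid response element that ATF4 binds. Of all 32851 windows 12.4% held TGACNNNGC, 8.09% TGATNNNGC, 5.2% TGACTCA and 0.895% TGATGCAA. Either core of the antioxidant response element was in 19.6% of all windows. The 7 members had 12 windows, and 5 members had either core, each in a single window. The 19.6% is a share of windows and not of genes, so it is to be set against the 12 windows. The 150 bases before 4 member starts are shown because these are known NRF2 targets whose windows held a match there, Slc7a11 being the member with the largest difference between the pools. Matches are in capitals.
Slc7a11: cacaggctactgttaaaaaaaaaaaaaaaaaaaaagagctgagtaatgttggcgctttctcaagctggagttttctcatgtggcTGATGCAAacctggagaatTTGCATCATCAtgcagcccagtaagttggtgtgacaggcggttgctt
Gclm: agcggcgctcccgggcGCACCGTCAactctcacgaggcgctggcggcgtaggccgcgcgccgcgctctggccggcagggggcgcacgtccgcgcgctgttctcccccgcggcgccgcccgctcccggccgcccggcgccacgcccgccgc
Txnrd1: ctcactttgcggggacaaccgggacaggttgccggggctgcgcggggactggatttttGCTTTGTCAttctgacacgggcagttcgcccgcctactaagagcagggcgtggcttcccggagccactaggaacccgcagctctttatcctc
Srxn1: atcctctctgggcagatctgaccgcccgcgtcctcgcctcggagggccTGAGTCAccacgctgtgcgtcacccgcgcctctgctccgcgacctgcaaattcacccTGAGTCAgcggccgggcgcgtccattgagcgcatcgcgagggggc
They run 5′ to 3′ on the gene's strand, from chr3:50443614-50443763 (reverse), chr3:122245407-122245556, chr10:82859056-82859205 and chr2:152105374-152105523 (forward).

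The Slc7a11 stretch was the only member window with TGATGCAA, once on the gene's strand from base 66 before the start and once on the other strand from base 47. The second overlaps a TGATNNNGC match that begins at base 45 before the start, and a further TGATNNNGC match begins at base 42 of the transcript. Gclm holds TGACNNNGC on the other strand from base 134, and Txnrd1 holds it from base 92 before the start shared by NM_001042513 and NM_015762. The windows of the other Txnrd1 starts, of Nqo1 and of Gpx4 held 0 matches. No Gpx4 window lay at the start that the authors' deposited table gives for a Gpx4 transcript. Srxn1 holds the AP-1 element from bases 102 and 45, neither overlapping a core match, and TGACNNNGC from base 29 of the transcript. Nfe2l2 holds TGACNNNGC from base 240 before its start. A match is a run of letters and not a site shown to be bound.

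Around the members, 10 lists of related genes held 234 genes, of which 191 were measured. Between the tumour pools 0 of the 191 passed 2-fold, with a median of -0.01. Against the line 7 were higher and 7 lower in the SCID pool (3.66% each), and 6 were higher and 5 lower in the WT pool (3.14% and 2.62%), shares close to those of all genes given above. The median of the 191 was -0.17 for SCID minus line and -0.15 for WT minus line.

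Regulators and partners of NRF2 had 13 of 19 measured genes above 0 in each pool against the line, where 48.3% and 48.6% of all genes were above 0. The medians were 0.28 for SCID minus line and 0.30 for WT minus line, or 0.15 in the WT pool after the GC and length trend was removed. Jun, an AP-1 subunit, was at 2.01 in the SCID pool and 1.79 in the WT pool, and Nfe2l3, the NRF2 relative NRF3, at 1.37 and 1.33. Trim21, a ubiquitin ligase named here after its value was seen, was the third past 2-fold in the SCID pool, at 1.08. Keap1 was at -0.02 in the SCID pool and -0.14 in the WT pool, Bach1 at 0.57 and 0.67, and Maff, a small MAF partner, at 0.72 and 0.73. Per the labels the tumour cells went through a sort that is not described for the culture, and the part of that handling in Jun was not tested. Among these regulators the farthest from 0 between the pools was Cul3, the scaffold of the KEAP1 ligase, at 0.28 for SCID minus WT.

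Of 35 other NRF2 targets measured, 27 were below 0 in the SCID pool and 25 in the WT pool, where 6141 and 6114 of all 11886 genes were below 0. Their medians were -0.28 for SCID minus line and -0.23 for WT minus line, or -0.13 in the WT pool after the GC and length trend was removed. Slc6a9, a glycine transporter, was the single gene past 2-fold, at -1.10 in the SCID pool, and was at -0.97 in the WT pool. Genes of NADPH supply were among those below 0, with G6pdx at -0.65 in the SCID pool and -0.47 in the WT pool and Taldo1 at -0.88 and -0.60. Ephx1, microsomal epoxide hydrolase, was the farthest from 0 between the pools, at -0.62 for SCID minus WT, with -0.22 for SCID minus line and 0.40 for WT minus line.

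Glutathione genes had medians of -0.22 for SCID minus line and -0.20 for WT minus line over 29 genes, or -0.07 and -0.09 after the GC and length trend was removed. With the farthest transcript of each gene the WT median was -0.36. Past 2-fold were Ggct at 1.05 in the SCID pool and 1.17 in the WT pool and Oplah at 1.06 and 1.07, enzymes of successive steps in the breakdown of gamma-glutamyl peptides. Chac1, which degrades glutathione, was at -0.88 in the SCID pool and -0.79 in the WT pool. The farthest from 0 between the pools was Gstt1, a glutathione transferase, at -0.44. The thioredoxin and peroxiredoxin list had 0 of 21 genes past 2-fold. Its median of -0.13 for SCID minus line and 0.09 for WT minus line went to -0.04 in each pool after the same step. Sesn3, a sestrin, was highest in the SCID pool at 0.93, Selenow, a small selenoprotein, in the WT pool at 0.86, and Msrb3, a methionine sulfoxide reductase, was at 0.34 for SCID minus WT. Superoxide and peroxide enzymes had 0 of 8 genes past 2-fold and medians of 0.01 and 0.03 against the line, or 0.08 and 0.09 after the trend was removed. Gpx8 was at 0.50 for SCID minus line and 0.39 for SCID minus WT, and Park7 at -0.44 for WT minus line.

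Genes listed as driving ferroptosis had 12 of 15 below 0 in the SCID pool and 11 in the WT pool. Of all 11886 genes, 6141 were below 0 in the SCID pool and 6114 in the WT pool. Besides enzymes that make or oxidise lipid substrates, the list holds Sat1, Cars, Vdac2, Vdac3 and Pebp1, which are not such enzymes. The list medians were -0.44 in the SCID pool, the value of Pebp1, and -0.42 in the WT pool, the value of Vdac2. Past 2-fold was 1 gene, lower in the SCID pool, where 2.62% of all genes were called lower. Fads2, a desaturase of polyunsaturated fatty acids, was at -1.09 in the SCID pool and -0.97 in the WT pool. Acsl4, which activates arachidonic acid for membrane lipids, was at 0.34 and 0.16. Of genes listed as suppressors outside glutathione, 13 of 22 were below 0 in the SCID pool and 14 in the WT pool. Dhcr7, which is not an established suppressor, was among those below 0, at -0.57 and -0.58. The listed genes had medians of -0.42 and -0.37. In each pool 2 were lower by 2-fold, a call made in 2.62% of all genes in the SCID pool and 2.03% in the WT pool. Hspb1, a small heat shock protein, was the highest of them at 0.96 and 0.88, and Gch1, which starts tetrahydrobiopterin synthesis, was at 0.48 and 0.55. Scd1, which makes monounsaturated fatty acids, was at -1.65 in the SCID pool and -1.47 in the WT pool, and Cisd1, an iron-sulfur protein of the outer mitochondrial membrane, at -1.23 and -1.13. Aifm2, which encodes the ubiquinone reductase FSP1, was at 0.15 and 0.21. Between the pools the farthest from 0 were Tmem189, the plasmalogen desaturase, at -0.33 and Mboat2, a phospholipid acyltransferase, at 0.43 for SCID minus WT, with Mboat2 at 0.70 on NM_001083341 and 0.16 on NM_026037.

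Against the line, iron genes held the widest range of the 10 lists in each pool. Tfrc, the transferrin receptor, was at -1.61 in the SCID pool and -1.75 in the WT pool against the line. Trf, transferrin itself, was at 1.37 in the SCID pool and 1.69 in the WT pool, and Cp, the ferroxidase ceruloplasmin, was 3.06-fold higher than culture in the SCID pool and 2.84-fold higher in the WT pool. Receptor and ligand thus stood on opposite sides of culture in both pools. The list median was -0.10 for SCID minus line, or 0.04 after the GC and length trend was removed, and 0.01 for WT minus line, or 0.08 after it, over 21 genes. Slc40a1, the iron exporter, was at -0.22 and -0.26, and Slc39a8, a metal importer, was the farthest from 0 between the pools at 0.37. Of 16 haem genes Abcg2, an exporter of porphyrins and drugs, was at -1.72 in the SCID pool and -1.68 in the WT pool, and Hmox2, the constitutive haem oxygenase, was farthest from 0 between the pools at -0.27. Of 17 genes of selenoprotein synthesis or encoding selenoproteins, Sephs2, which supplies selenophosphate, was at -1.14 and -1.02 against the line, and Selenop, a secreted selenium carrier, was at -0.35 for SCID minus WT.

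**Figure D4:**
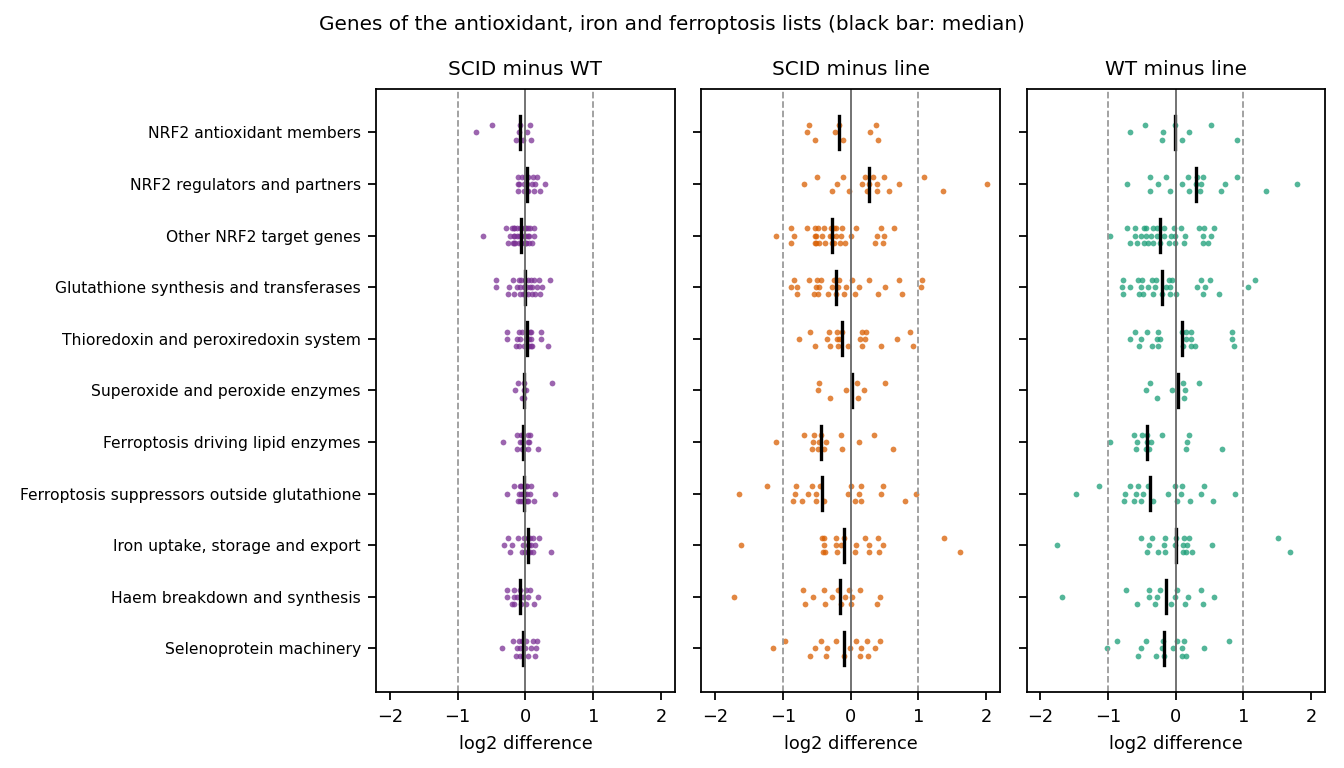
Log2 difference (x axes) of each measured gene, 1 dot per gene, in the member list and the 10 related lists (rows) for SCID minus WT, SCID minus line and WT minus line (panels), with black bars at list medians and dashed lines at 2-fold. No gene passes 2-fold between the tumour pools, and against the line the iron list holds genes past 2-fold on both sides.

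Most measured markers of host cells were above 0 against the line, where 48.3% of all genes were above 0 in the SCID pool and 48.6% in the WT pool. Of macrophage markers 5 of 6 were above 0 in the SCID pool and 6 of 6 in the WT pool. Of T and NK cell markers 2 of 3 were above 0 in each pool. The 2 fibroblast markers stood at 2.49 and 2.61 in the SCID pool and at 1.85 and 1.90 in the WT pool, and the 3 endothelial markers of 12 (Kdr, Flt1 and Eng) ranged from 0.80 to 1.63 in the SCID pool and from 0.93 to 1.66 in the WT pool. Of 8 red cell markers only Epor had a row, at -0.03 in the SCID pool and 0.05 in the WT pool. Eomes was at -0.61 in the SCID pool and -0.63 in the WT pool, Tcf7 at 0.36 and 0.35, and Foxp3 at 0.10 and 0.09. Mrc1 was the single macrophage marker below 0 against the line, at -0.06 in the SCID pool, and was at 0.77 in the WT pool. Epithelial markers lay on both sides. In the SCID pool Sox9 was at 1.28, Epcam at 1.25 and Cldn4 at 1.01, against Krt7 at -1.18 and Krt19 at -1.01, and the other 5 (Cldn7, Krt8, Cdh1, Muc1 and Krt18) ran from -0.71 to -0.26. In the WT pool Epcam was at 1.59, Cldn4 at 1.26 and Sox9 at 1.11, and the other 7 ran from -0.99 (Krt7) to -0.10 (Muc1). The part of host cells in the values against the line was not tested.

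Among the 3 genes whose values against the line lay nearest to those of Hmox1, the member farthest from 0, were Cyth1 and Trpv4, at Euclidean distances of 0.044 and 0.046 over the 2 comparisons against the line. Cyth1 was at 0.41 for SCID minus line and 0.87 for WT minus line, and Trpv4 at 0.37 and 0.91.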

How the data were processed

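The authors deposited a table of log2 fold changes between libraries per RefSeq transcript, with no counts. The log base is not in its header, and log2 was assumed since DESeq2 1.20.0 is named in the submitters' processing notes. Those notes name BWA, Partek, R 3.5.1 and mm9 too, without roles, and no source used here gives the scaling, shrinkage or row filter. Per the labels, libraries were stranded and poly(A)-selected and were read from both ends over 75 bases.

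The third column names SCID alone. It equalled the first minus the second within 1e-12 in all 17910 transcripts and was read as SCID minus WT. Ends are the table's stop minus 1. Gene means, counts past 2-fold, medians and ranks over 11886 genes were computed with Python 3.11.15 and pandas 2.3.3, and the code was tested on simulated data. GC content and length came from GENCODE vM21 for 93.2% of transcripts, all 14 member transcripts included. The 10 members, the gene lists and the rule for named genes were chosen with earlier results of these data known. Named are all members, the 2 highest and 2 lowest list genes past 2-fold or else the gene farthest from 0, measured markers of other cell types, and the 3 genes nearest in pattern to the member farthest from 0. Any further gene was named after its value had been seen. A gene the rule names is not reported here. Alternatives are given at the end.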

Additional observations from a re-analysis of the deposited data

Results flagged for a closer look

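Slc7a11 was the single member with gene means on opposite sides of 0 in the tumour pools, at -0.64 for SCID minus line and 0.09 for WT minus line, a difference of -0.73. The difference was not tested, since each pool is 1 library, and both values share the library of the line. The value of 0.09 lay inside the SD of 0.31 between transcripts and went to 0.01 after the GC and length trend was removed.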

How the results depend on the processing

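Counts of members past the threshold were 0 in each comparison and direction with the mean, median or farthest transcript, with coding transcripts, after centring on the median gene, after removal of the GC and length trend and at 4-fold. At 1.5-fold they were 1 lower for SCID minus WT, 2 lower for SCID minus line, and 1 higher and 1 lower for WT minus line. Slc7a11 ranged from -0.83 to -0.72 for SCID minus WT over these settings and Hmox1 from -0.50 to -0.47. Each has 1 transcript, a coding one, so the choice of transcript could not move either value. Centring shifts all genes alike. Against the line 4 of 45 member values in the SCID pool and 4 of 45 in the WT pool moved by more than the SD between transcripts, in Txnrd1, Gpx4 and Nfe2l2, each with the farthest transcript and Nfe2l2 also with coding transcripts alone. The other members have 1 transcript each, so the choice of transcript could not move their values. With the farthest transcript Txnrd1 turned to 0.56 for SCID minus line and 0.87 for WT minus line. After removal of the trend Gpx4 was at 0.01 and Gclm at -0.02 for SCID minus WT, on the other side of 0. The median of members for WT minus line was -0.02 and ranged from -0.18 with the median transcript to 0.09 with the farthest, and for SCID minus WT it went to -0.22 with the farthest transcript. No list median moved by more than that SD. No paired analysis was possible because each group has 1 library, and leaving out a library ends its comparison. Depth cannot be judged without counts.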
